A study of Mus musculus with 9 samples.

Results

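The genes described here are 41 mitotic genes, whose products enter, run or complete the division of a cell. They were chosen by name, as a list of 41 gene symbols, and each symbol matched 1 of the 55401 genes in the count table. Of these genes, 15717 had enough counts to be tested, and the 41 mitotic genes were among them. They were followed in RNA from whole livers of 9 female mice in 3 groups, each of 3 separate livers, and p-values measure the spread between these livers only. The groups are named here healthy, untreated HCC (hepatocellular carcinoma) and miR-22-treated HCC, and a liver carries the replicate number of its label.

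HCC was induced in mice of 6 weeks by hydrodynamic injection, in which a large volume pushed fast into the tail vein carries plasmids into hepatocytes. The plasmids integrate through the sleeping beauty transposase and express myristoylated AKT and Nras-v12 (RAS/AKT), and the labels also list an N90-β-catenin plasmid, while the study also describes a separate β-catenin/AKT model. At 1 week after the oncogenes the mice received AAV8 carrying miR-22 or a blank AAV8, and livers were taken at 5 weeks. The blank virus defines untreated HCC, so both HCC groups carry oncogenes and a virus. Healthy livers had neither, came from wild-type mice whose label also gives an age of 6 weeks, and have no collection time in the sources used here. One label field names the strain as C57BL/6, whereas another and the methods name FVB/N. The virus dose also differs between labels and methods and is not stated here. Oncogene expression begins in the transfected hepatocytes of an adult liver, so tumor and remaining liver were extracted together.

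Mitosis is driven by cyclin-dependent kinase 1 (CDK1) with cyclins A and B, while PLK1 and the aurora kinases build the spindle, kinetochores tie chromosomes to it, and the anaphase-promoting complex ends the state by marking cyclin B and securin for destruction. Transcripts of these proteins are low in resting cells and rise together late in the cell cycle, under the MuvB complex, which represses them in quiescent cells as DREAM and activates them with B-MYB and FOXM1 in dividing ones. The adult liver is largely quiescent and returns to division after injury, resection or transformation.

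All 41 mitotic genes rose in untreated HCC, and each of the 3 untreated livers stood above each of the 3 healthy livers for all 41. A gene was called where the Benjamini-Hochberg adjusted p of edgeR's quasi-likelihood test, over all genes tested, was under 0.05 and the fold was over 1.5. By this rule 22.7% of all genes were called higher and 18.1% lower in HCC, and 33.9% had every HCC liver above every healthy liver. The median log2 fold change of the mitotic genes was 4.00, a 16-fold difference, against 0.01 for all genes tested. Fold changes ran from 1.98 for Cenpa to 45.8 for Ttk, with adjusted p between 1.5e-08 and 0.00017, and 33 of the 41 genes exceeded 8-fold. In 10 genes every healthy liver had fewer than 10 counts, so these passed the count filter only through HCC livers. That filter favored a call of higher for them, so their calls add no independent evidence. Of the 15 genes with at least 10 counts in every library, all were called higher.

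With miR-22, 17 of the 41 fell against untreated HCC and none was called higher. The background for this count is 5.47% of all genes called lower and 8.32% called higher. The log2 fold change was negative for all 41, with a median of -0.66 (1.58-fold lower) against 0.00 for all genes. In 30 genes each treated liver lay below each untreated liver, against 19.6% of all genes. The 95% confidence interval of the log2 fold change, unadjusted for the number of genes, lay below 0 in 31 genes. The share of all genes with such an interval was not counted, so 31 has no background here. Against healthy livers, miR-22-treated HCC still had 40 of the 41 called higher, where 16.9% of all genes were called higher and 7.05% lower, and the median log2 fold change was 3.23 (9.39-fold). In bulk RNA, fewer dividing cells and less RNA per dividing cell cannot be told apart.

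The count of 17 depended on which livers entered. It was 7 without untreated liver 2, 7 without untreated liver 3, 7 without treated liver 3 and 13 without treated liver 2, but 25 without treated liver 4. The number of all genes called lower also varied between fits without 1 liver, with the range given in the last section. The member counts are not set against it fit by fit, so the shifts cannot be called particular to these genes. Anln, Cdc20, Kif20a, Plk1 and Tpx2 remained called in all 9 fits that left out 1 liver, and the other 12 lost the call in at least 1. The median of the 41 log2 fold changes stayed negative in these fits, between -0.81 and -0.53.

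Summed over the 41 genes, healthy livers 1, 2 and 3 held 946, 1032 and 1232 normalized counts, that is, counts scaled by TMM (trimmed mean of M values) to a common library of 19401057. Untreated HCC livers 2, 3 and 4 held 12294, 11843 and 9476, and miR-22-treated livers 2, 3 and 4 held 7065, 5706 and 8478. The 3 groups therefore did not overlap, although treated liver 4 came close to untreated liver 4. The sum took 0.00425% to 0.00551% of all counts for the healthy group, 0.0547% to 0.0745% for untreated HCC and 0.0277% to 0.0449% for miR-22. The mean of untreated HCC was 10.5-fold that of healthy livers, and the miR-22 mean was 36.8% below it, still 6.62-fold above healthy.

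Livers tended to rank alike across the genes. Treated liver 4 was the highest of its group for 34 of the 41 genes and treated liver 3 the lowest for 32. Untreated liver 4 was the lowest of its group for 37, and untreated liver 2 the highest for 25. The coefficient of variation over the 3 livers had a median of 16.4% in untreated HCC, 23.1% with miR-22 and 34.5% in healthy livers, where counts were lowest.

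**Figure D1:**
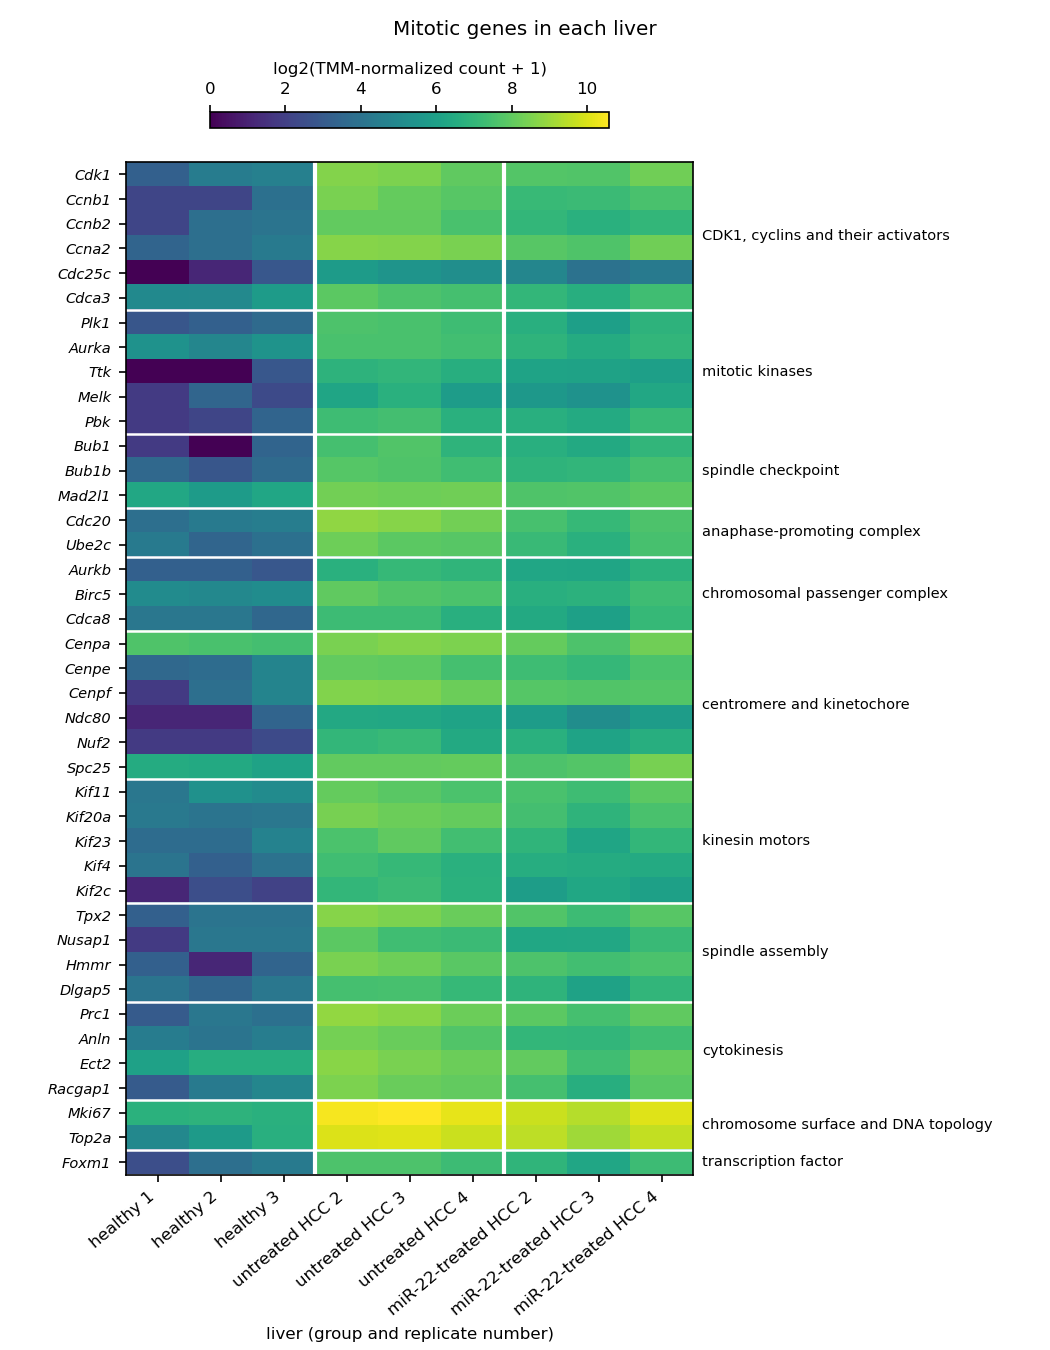
Heat map of the 41 mitotic genes (rows, grouped by role) in the 9 livers (columns, by group and replicate number), with color as log2 of the TMM-normalized count plus 1. For all 41 genes the 3 untreated livers are brighter (higher) than the 3 healthy ones, and treated liver 4 is the highest of its group for 34.

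Low counts limit the folds against healthy livers. In 10 genes (Cdc25c, Ttk, Melk, Pbk, Bub1, Aurkb, Ndc80, Nuf2, Kif2c and Hmmr) every healthy liver had fewer than 10 counts, and Cdc25c, Ttk and Bub1 had a 0 in at least 1. Healthy liver 3 carried most of the healthy reads of several genes. Without it the fold rose by over 1.5 times for Ccnb1, from 38.1 to 74.3, for Pbk, from 26.1 to 45, and for Cenpf, from 23.5 to 42.7. In healthy livers 1 and 2, Cdc25c had 0 and 1 counts, Bub1 2 and 0, and Ndc80 1 and 1. These lie under the floor of 3 counts per library, so no fold without liver 3 is given for them. Ttk was at 0 in both other healthy livers, so that without liver 3 the fold is given only as at least 30.5, against a floor of 3 counts per library. For Melk, leaving out healthy liver 2 moved the fold from 14.0 to 22. Between treated and healthy livers the folds of Ccnb1, Pbk and Cenpf without healthy liver 3 also moved by over 1.5 times, as did Melk without healthy liver 2. For example, Ccnb1 went from 21.1 to 41.1. All 41 genes remained called higher in untreated HCC in each of these fits.

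Since the genes moved together, their promoters were searched for the 2 motifs linked to late cell cycle transcription. These are the cell cycle homology region (CHR), written TTTGAA or TTCGAA, which MuvB binds, and the CCAAT box, bound by NF-Y, which often occurs in spaced pairs beside a CHR. RefSeq promoter windows, from 250 bases before to 50 bases after the gene start in GRCm38.p6, were present for 33 of the 41 genes in 35 windows, and each window matched GRCm39 at 1 place. Windows were not at hand for Aurkb, Ccna2, Cdc25c, Dlgap5, Foxm1, Kif20a, Pbk and Tpx2. Both strands were read. The following are Cdc20, Ccnb2, Plk1 and Mki67, which fell with miR-22, and Spc25, which differed least. They are given 5′ to 3′ on the strand of the gene with GRCm39 places, and capitals mark each CHR and CCAAT match on either strand (a CCAAT on the opposite strand reads ATTGG).
Cdc20, chr4:118294491-118294790, minus strand: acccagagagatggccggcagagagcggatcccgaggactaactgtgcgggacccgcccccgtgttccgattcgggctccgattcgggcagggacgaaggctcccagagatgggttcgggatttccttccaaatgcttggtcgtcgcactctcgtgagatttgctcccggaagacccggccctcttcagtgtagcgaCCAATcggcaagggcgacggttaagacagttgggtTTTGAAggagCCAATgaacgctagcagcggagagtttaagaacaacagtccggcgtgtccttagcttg
Ccnb2, chr9:70328787-70329086, minus strand: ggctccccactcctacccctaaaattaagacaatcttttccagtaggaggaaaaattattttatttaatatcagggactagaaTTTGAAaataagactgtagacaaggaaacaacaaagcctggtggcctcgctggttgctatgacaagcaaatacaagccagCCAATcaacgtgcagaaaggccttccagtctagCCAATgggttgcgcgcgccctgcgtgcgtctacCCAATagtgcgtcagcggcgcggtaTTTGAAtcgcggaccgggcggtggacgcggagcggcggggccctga
Plk1, chr7:121758408-121758707, plus strand: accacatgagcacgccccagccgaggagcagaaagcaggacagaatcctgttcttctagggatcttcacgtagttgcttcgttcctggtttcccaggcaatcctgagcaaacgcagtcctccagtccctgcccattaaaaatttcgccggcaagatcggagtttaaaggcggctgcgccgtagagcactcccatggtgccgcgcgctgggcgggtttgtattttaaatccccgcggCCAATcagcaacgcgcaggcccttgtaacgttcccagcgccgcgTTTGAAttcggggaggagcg
Mki67, chr7:135318059-135318358, minus strand: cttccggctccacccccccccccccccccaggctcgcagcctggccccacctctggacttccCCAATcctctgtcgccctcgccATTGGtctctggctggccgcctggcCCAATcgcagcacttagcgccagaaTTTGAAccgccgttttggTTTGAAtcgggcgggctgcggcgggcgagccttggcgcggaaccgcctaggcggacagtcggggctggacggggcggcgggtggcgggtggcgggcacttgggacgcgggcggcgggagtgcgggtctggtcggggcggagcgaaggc
Spc25, chr2:69036508-69036807, minus strand: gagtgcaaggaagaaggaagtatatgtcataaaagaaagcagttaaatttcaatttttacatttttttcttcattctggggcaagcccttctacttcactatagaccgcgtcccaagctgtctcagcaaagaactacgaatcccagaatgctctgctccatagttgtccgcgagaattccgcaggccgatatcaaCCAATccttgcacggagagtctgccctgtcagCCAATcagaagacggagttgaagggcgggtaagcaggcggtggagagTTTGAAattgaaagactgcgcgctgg

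In the Cdc20 window a CCAAT began 53 bases before the start, a CHR 18 bases before it and a second CCAAT 8 bases before it. Ccnb2 held 3 CCAAT boxes, at -87, -54 and -21, followed by a CHR at position 5 after the start, with a further CHR at -167. Plk1 held 1 CCAAT at -14 and a CHR at position 31. The Mki67 window differed, with its matches farther upstream, CHR at -116 and -98 and CCAAT at -188, -166 and -141. Spc25, whose level differed least with miR-22, held the same kind of arrangement as Ccnb2, with CCAAT at -55 and -23 and a CHR at position 25.

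A CHR stood in the windows of 26 of the 33 genes (78.8%), against 21.7% of all 27025 genes with a window, 47.6% of 105 other mitotic genes and 22.9% of 35 S phase genes. At least 1 CCAAT stood in 75.8% of the mitotic genes and 41.1% of all genes, and at least 2 in 54.5% and 13.3%. In other mitotic genes these shares were 56.2% and 33.3%, and in S phase genes 54.3% and 31.4%. Both motifs together occurred in 69.7% against 8.61% of all genes, 30.5% of other mitotic genes and 14.3% of S phase genes. Among the 38 CHR and 65 CCAAT matches in the windows, 1 CHR overlapped with a CCAAT, in Cdca8. Overlaps between CCAAT matches on opposite strands, as in the Ube2c window, were not counted. Ect2 and Prc1 each had 2 overlapping windows, and their matches were counted in both. CHR matches were densest in the 25 bases after the start, with 37.1 per 100 windows against 0.934 for other tested genes, and CCAAT matches between 75 and 50 bases before it, with 40 against 8.83. The 7 genes with a window but no CHR were Birc5, Ccnb1, Cenpe, Mad2l1, Melk, Nuf2 and Nusap1. Their median log2 fold changes were 3.81 in HCC and -0.53 with miR-22, against 4.08 and -0.68 for the 26 with a CHR. A match is a description of these letters and says nothing of binding in these livers.

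**Figure D2:**
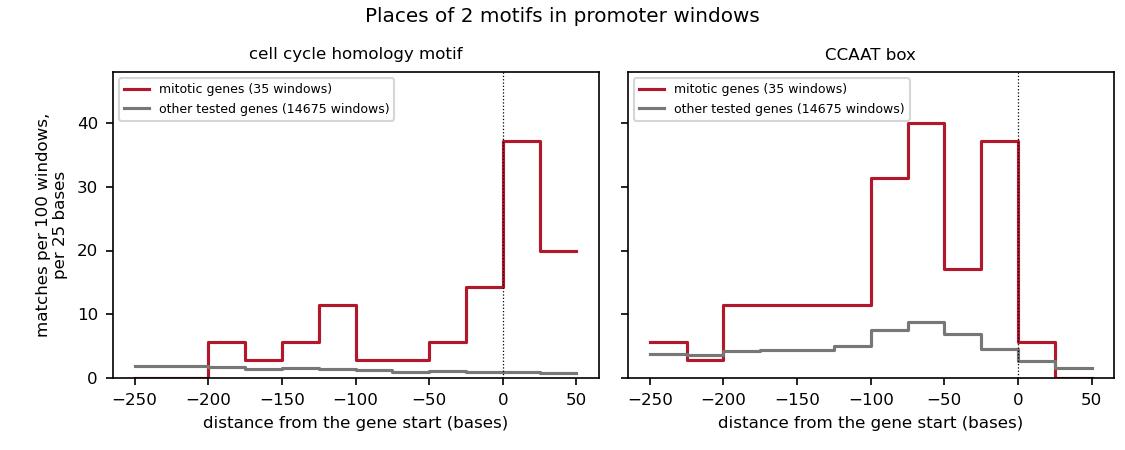
Matches per 100 promoter windows in bins of 25 bases (vertical axis) by distance from the gene start (horizontal axis) for the CHR (left) and the CCAAT box (right), in the 35 windows of mitotic genes (red) and 14675 windows of other tested genes (gray). The CHR line of the mitotic genes is highest just after the start, at 37.1, and the CCAAT line at 40 between 75 and 50 bases before it.

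Among CDK1, its cyclins and their activators, all 6 genes rose in HCC and 3 fell with miR-22, namely Ccna2, Ccnb1 and Ccnb2. Cdk1, the kinase whose activity defines mitosis, stood at 8.54, 20.8 and 23.5 normalized counts in the healthy livers, at 394, 362 and 255 in untreated HCC and at 216, 209 and 311 in miR-22-treated HCC. Treated liver 4 exceeded untreated liver 4, so the HCC groups overlapped. Cdk1 was 18.8-fold higher in untreated HCC than in healthy livers (adjusted p = 2.4e-07), and its 1.37-fold lower level with miR-22 did not pass the test (adjusted p = 0.17). Ccnb1, the cyclin B1 that activates CDK1 at mitotic entry, had 3.66, 3.67 and 13.9 normalized counts in healthy livers, 354, 269 and 229 in untreated HCC and 138, 147 and 185 with miR-22. No treated liver reached the untreated range. The gene was 38.1-fold higher in HCC (adjusted p = 1.6e-07) and fell by 0.85 on the log2 scale with miR-22 (SE 0.24, 1.80-fold, adjusted p = 0.023).

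Ccnb2, encoding cyclin B2, read 3.66, 13.4 and 16 in healthy livers, 260, 265 and 186 in untreated HCC and 126, 105 and 128 with miR-22. The 3 treated livers were close to each other and all below the untreated ones. Ccnb2 was 20.9-fold higher in HCC (adjusted p = 2.8e-07) and fell by 0.98 on the log2 scale with miR-22 (SE 0.24, 1.97-fold, adjusted p = 0.011). Ccna2, encoding cyclin A2, which serves both S phase and early mitosis, read 9.76, 13.4 and 19.2 in healthy livers, 400, 389 and 351 in untreated HCC and 229, 203 and 315 with miR-22. The groups were apart, with treated liver 4 nearest to untreated liver 4. Its fold was 26.3 in HCC (adjusted p = 2.5e-08), and it fell by 0.60 on the log2 scale with miR-22 (SE 0.17, 1.52-fold, adjusted p = 0.024), just past the fold threshold.

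Cdc25c, the phosphatase that removes the inhibitory phosphates from CDK1, was the faintest of the 41 in HCC livers. It had 0, 1.22 and 6.40 normalized counts in healthy livers, 54.6, 43.4 and 37.0 in untreated HCC and 27.7, 14.8 and 19.4 with miR-22. The 3 groups did not overlap. Its log2 fold change with miR-22 of -1.11 was among the lowest of the 41, but the error was also wide (SE 0.45, adjusted p = 0.092). Cdca3, which promotes destruction of the CDK1 inhibitor WEE1, averaged 38.9 ± 13.4 (SD, n = 3) in healthy livers, 205 ± 33.9 in untreated HCC and 129 ± 30.9 with miR-22, and the last difference had an adjusted p of 0.055.

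All 5 mitotic kinases rose in HCC, and Plk1 and Aurka fell with miR-22. Plk1, which matures centrosomes and prepares chromosomes for separation, read 6.10, 8.56 and 11.7 in healthy livers, 196, 185 and 157 in untreated HCC and 99.9, 61.9 and 114 with miR-22. Every treated liver was below every untreated liver. Plk1 was 19.9-fold higher in HCC (adjusted p = 2.5e-07) and fell by 0.96 on the log2 scale with miR-22 (SE 0.23, 1.94-fold, adjusted p = 0.010). Aurka, the aurora kinase of the spindle poles, read 41.5, 28.1 and 42.6 in healthy livers, 183, 184 and 167 in untreated HCC and 117, 89.1 and 124 with miR-22. Untreated livers were tightly grouped and stood above the others. The difference was 4.73-fold in HCC (adjusted p = 2.0e-06), and Aurka fell by 0.69 on the log2 scale with miR-22 (SE 0.19, 1.62-fold, adjusted p = 0.019).

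Ttk, the MPS1 kinase that starts the spindle checkpoint, had the largest fitted fold in HCC. It had no reads in healthy livers 1 and 2 and 6.40 normalized counts in healthy liver 3, against 113, 124 and 97.8 in untreated HCC and 68.8, 68.0 and 60.9 with miR-22. Treated livers lay closely together below the untreated ones, yet the 1.69-fold difference did not pass the test (adjusted p = 0.12). Melk and Pbk, kinases with less settled roles in dividing cells, averaged 5.49 ± 3.82 and 5.23 ± 3.83 in healthy livers, 78.2 ± 24.4 and 144 ± 35.2 in untreated HCC, and 56.3 ± 20.3 and 109 ± 25.6 with miR-22. For both the HCC groups overlapped, and the adjusted p values with miR-22 were 0.37 and 0.32.

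The 3 genes of the spindle checkpoint, which holds anaphase until every chromosome is attached, rose in HCC. With miR-22 none of them was called by edgeR or by DESeq2, although 2 had an unadjusted p under 0.05 in edgeR. Bub1b, encoding BUBR1 of the checkpoint complex, read 11.0, 6.11 and 11.7 in healthy livers, 219, 203 and 159 in untreated HCC and 115, 122 and 176 with miR-22. Treated liver 4 exceeded untreated liver 4. Bub1b was 19.8-fold higher in HCC (adjusted p = 1.6e-07), and the 1.40-fold lower level with miR-22 had an adjusted p of 0.12. Mad2l1, encoding MAD2, which binds and blocks CDC20, read 79.3, 55.0 and 76.7 in healthy livers, 325, 302 and 311 in untreated HCC and 203, 205 and 240 with miR-22. The groups were apart and narrow. With miR-22 Mad2l1 had a log2 fold change of -0.53 (SE 0.14, adjusted p = 0.018), and the 1.44-fold difference stayed under the fold threshold. Bub1, which recruits checkpoint proteins to the kinetochore, averaged 4.01 ± 4.99, 166 ± 47.1 and 103 ± 19.8 in healthy, untreated and treated livers (adjusted p = 0.16 with miR-22).

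Both partners of the anaphase-promoting complex rose in HCC and fell with miR-22. Cdc20, the activator that directs the complex to cyclin B and securin, read 13.4, 19.6 and 21.3 in healthy livers, 449, 402 and 320.3 in untreated HCC and 181, 134 and 197 with miR-22. The untreated livers were all far above the treated ones, and the treated all above the healthy. Cdc20 was 21.3-fold higher in HCC (adjusted p = 3.2e-08), and its fall with miR-22 was the largest of the 41 with all livers entered, by 1.19 on the log2 scale (SE 0.18, 2.28-fold, 95% CI -1.58 to -0.80, adjusted p = 0.00089). It was the 1 gene of the 41 that was called lower in all 19 alternative fits, although Cdc25c without treated liver 2 and Kif2c without treated liver 3 had lower log2 fold changes. Ube2c, the ubiquitin-conjugating enzyme of the complex, read 19.5, 9.78 and 13.9 in healthy livers, 299, 238 and 228 in untreated HCC and 143, 105 and 181 with miR-22. The 3 groups did not overlap. Ube2c was 17.6-fold higher in HCC (adjusted p = 1.6e-07) and fell by 0.83 on the log2 scale with miR-22 (SE 0.21, 1.77-fold, adjusted p = 0.015). Both genes together held 646 ± 99.9 normalized counts (SD, n = 3) without miR-22 and 314 ± 70.4 with it.

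Cdc20 lies on chromosome 4 at 118290098 to 118294610 of GRCm39, on the minus strand, and its printed promoter window is at its 5′ end.

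In the chromosomal passenger complex, which corrects faulty attachments and later marks the cleavage plane, all 3 genes rose in HCC and Birc5 alone was called with miR-22. Birc5, encoding survivin, read 32.9, 29.3 and 34.1 in healthy livers, 251, 208 and 190 in untreated HCC and 102, 110 and 158 with miR-22. The groups did not overlap, with treated liver 4 the nearest to the untreated range. Birc5 was 6.69-fold higher in HCC (adjusted p = 6.6e-07) and fell by 0.80 on the log2 scale with miR-22 (SE 0.19, 1.74-fold, adjusted p = 0.010). Aurkb, the kinase of the complex, read 8.54, 8.56 and 6.40 in healthy livers, 105, 136 and 122 in untreated HCC and 75.5, 73.0 and 106 with miR-22. Treated liver 4 overlapped with untreated liver 2, and the 1.42-fold difference had an adjusted p of 0.11. Cdca8, encoding borealin, averaged 14.9 ± 3.72, 134 ± 28.1 and 94.7 ± 37.8 (adjusted p = 0.24 with miR-22).

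The 6 genes of centromere and kinetochore rose in HCC. With miR-22 none was called by edgeR, where 2 had an unadjusted p under 0.05, and 1, Cenpf, was called by DESeq2. Cenpa, the histone H3 variant that marks centromeres, differed least from healthy livers. It read 205, 183 and 172 in healthy livers, 349, 396 and 363 in untreated HCC and 271, 197 and 312 with miR-22. Untreated livers stood above both other groups, and treated liver 3 lay inside the healthy range. Cenpa was 1.98-fold higher in HCC (log2 fold change 0.99, SE 0.16, adjusted p = 0.00017). With miR-22 it was 1.42-fold lower than without (adjusted p = 0.033) and 1.40-fold above healthy (adjusted p = 0.033), both under the fold threshold, which made it the 1 gene not called between treated and healthy livers. Cenpf, a large protein of the outer kinetochore, read 2.44, 13.4 and 26.6 in healthy livers, 377, 374 and 290 in untreated HCC and 223, 205 and 213 with miR-22. The HCC groups were apart, and the log2 fold change of -0.70 had an adjusted p of 0.069 (SE 0.26).

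Ndc80, Nuf2 and Spc25 encode subunits of 1 complex, the NDC80 complex, which binds microtubules. Ndc80 read 1.22, 1.22 and 9.59 in healthy livers, 81.8, 80.8 and 69.6 in untreated HCC and 56.6, 35.9 and 57.2 with miR-22. Its HCC groups did not overlap, but the 1.54-fold difference had an adjusted p of 0.22. Nuf2 read 2.44, 2.44 and 4.26 in healthy livers, 127, 139 and 85.5 in untreated HCC and 104, 69.3 and 98.7 with miR-22. The HCC groups overlapped, and Nuf2 remained 28.3-fold above healthy in treated livers. Spc25 read 90.3, 85.6 and 68.2 in healthy livers, 264, 261 and 273 in untreated HCC and 196, 215 and 341 with miR-22. Treated liver 4 was the highest of all 9 livers, and treated livers 2 and 3 lay below the untreated ones. Spc25 had the log2 fold change nearest 0 with miR-22, -0.08 (95% CI -0.49 to 0.33, adjusted p = 0.81), which reached 0.07 without treated liver 2 and -0.37 without treated liver 4. Cenpe, the kinesin of the kinetochore, averaged 16.6 ± 8.71, 228 ± 47.1 and 159 ± 30.6 in healthy, untreated and treated livers (adjusted p = 0.14 with miR-22).

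All 5 kinesin motors rose in HCC, and Kif20a, Kif23 and Kif2c fell with miR-22. Kif11, the motor that pushes spindle poles apart, read 17.1, 40.3 and 33.0 in healthy livers, 269, 230.2 and 188 in untreated HCC and 184, 156 and 242 with miR-22. The HCC groups overlapped, and the 1.176-fold difference had an adjusted p of 0.51. Kif20a, which carries proteins to the central spindle, read 18.3, 15.9 and 17.1 in healthy livers, 342, 294 and 271 in untreated HCC and 171, 116 and 185 with miR-22. Each group kept its own range. Kif20a was 17.6-fold higher in HCC (adjusted p = 4.4e-08) and fell by 0.93 on the log2 scale with miR-22 (SE 0.18, 1.91-fold, adjusted p = 0.0029).

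Kif23, the motor of centralspindlin, read 12.2, 12.2 and 24.5 in healthy livers, 193, 253 and 167 in untreated HCC and 119.8, 73.0 and 126 with miR-22. All treated livers were below the untreated ones. It was 12.2-fold higher in HCC (adjusted p = 1.3e-06) and fell by 0.93 on the log2 scale with miR-22 (SE 0.26, 1.90-fold, adjusted p = 0.020). Kif2c, which takes microtubules apart at centromeres, read 1.22, 4.89 and 3.20 in healthy livers, 129, 149 and 108 in untreated HCC and 58.8, 77.9 and 63.7 with miR-22. Here treated liver 3 was the highest of its group. Kif2c was 39.8-fold higher in HCC (adjusted p = 1.5e-07) and fell by 0.94 on the log2 scale with miR-22 (SE 0.23, 1.92-fold, adjusted p = 0.012). Kif4, the chromokinesin KIF4A, averaged 13.1 ± 3.97, 134 ± 30.0 and 91.4 ± 4.45 and did not overlap between the HCC groups (adjusted p = 0.094 with miR-22).

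Of the 4 spindle assembly genes, all rose in HCC and Tpx2 and Hmmr fell with miR-22. Tpx2, which activates aurora A on spindle microtubules, read 8.54, 15.9 and 16 in healthy livers, 406, 363 and 284 in untreated HCC and 211, 151 and 226 with miR-22. The groups stood apart. Tpx2 was 25.6-fold higher in HCC (adjusted p = 4.5e-08) and fell by 0.83 on the log2 scale with miR-22 (SE 0.19, 1.78-fold, adjusted p = 0.0079). Hmmr, a hyaluronan receptor that also binds spindle poles, read 8.54, 1.22 and 9.59 in healthy livers, 347, 299 and 230 in untreated HCC and 194, 163 and 188 with miR-22. No HCC livers overlapped between the groups. Hmmr was 43.5-fold higher in HCC (adjusted p = 8.2e-08) and fell by 0.68 on the log2 scale with miR-22 (SE 0.22, 1.602-fold, adjusted p = 0.041). Nusap1 and Dlgap5, which bundle or stabilize spindle microtubules, averaged 12.2 ± 8.46 and 14.2 ± 3.90 in healthy livers, 183 ± 51.5 and 163 ± 25.7 in untreated HCC, and 100 ± 37.3 and 103 ± 31.9 with miR-22. Their HCC groups did not overlap, and the adjusted p values were 0.089 and 0.076.

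The 4 cytokinesis genes rose in HCC, and Prc1, Anln and Ect2 fell with miR-22. Prc1, which bundles the microtubules of the central spindle, read 7.32, 17.1 and 13.9 in healthy livers, 469, 410.0 and 291 in untreated HCC and 239.7, 176 and 254 with miR-22. Untreated liver 4 was lowest of its group but still above every treated liver. Prc1 was 30.1-fold higher in HCC (adjusted p = 5.9e-08) and fell by 0.80 on the log2 scale with miR-22 (SE 0.20, 1.74-fold, adjusted p = 0.014). Anln, encoding anillin, the scaffold of the contractile ring, read 20.7, 15.9 and 21.3 in healthy livers, 330.0, 284 and 209 in untreated HCC and 128, 125 and 162 with miR-22. Groups were separate. Anln was 14.0-fold higher in HCC (adjusted p = 9.4e-08) and fell by 0.98 on the log2 scale with miR-22 (SE 0.19, 1.98-fold, adjusted p = 0.0033).

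Ect2, which activates RhoA at the cleavage site, read 64.6, 96.6 and 94.9 in healthy livers, 410.0, 348 and 295 in untreated HCC and 261, 162 and 266 with miR-22. Healthy livers already held clear levels, and the groups did not overlap. Ect2 was 4.10-fold higher in HCC (adjusted p = 6.4e-06) and fell by 0.61 on the log2 scale with miR-22 (SE 0.20, 1.52-fold, adjusted p = 0.045), a call that was lost in 6 of the 9 fits without 1 liver. Racgap1, the partner of KIF23 in centralspindlin, averaged 18.2 ± 10.3, 302 ± 46.9 and 168 ± 68.1, and its 1.78-fold difference with miR-22 had an adjusted p of 0.058.

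Mki67 and Top2a had the highest mean normalized counts of the 41 in both HCC groups, though not in healthy livers, where Cenpa was above both. Mki67, encoding Ki-67, which coats mitotic chromosomes and marks cycling cells in pathology, read 106, 112 and 103 in healthy livers, 1388, 1529 and 1173 in untreated HCC and 859, 677 and 1079 with miR-22. The groups did not overlap, and treated liver 4 lay just below untreated liver 4. Mki67 was 12.7-fold higher in HCC (adjusted p = 1.5e-08) and fell by 0.64 on the log2 scale with miR-22 (SE 0.15, 1.56-fold, adjusted p = 0.0080). Top2a, the topoisomerase that untangles sister chromatids, read 29.3, 53.8 and 100.2 in healthy livers, 1026, 1077 and 843 in untreated HCC and 740, 544 and 779 with miR-22. All treated livers were below the untreated ones here too, but the 1.42-fold difference did not pass the test (adjusted p = 0.13). Foxm1, the transcription factor that activates many of these genes in G2, read 4.88, 13.4 and 19.2 in healthy livers, 194, 198 and 151 in untreated HCC and 121, 75.5 and 150.4 with miR-22. Treated liver 4 came within 1 normalized count of untreated liver 4. Foxm1 was 14.1-fold higher in HCC (adjusted p = 2.5e-06), and the 1.55-fold lower level with miR-22 had an adjusted p of 0.13.

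**Figure D3:**
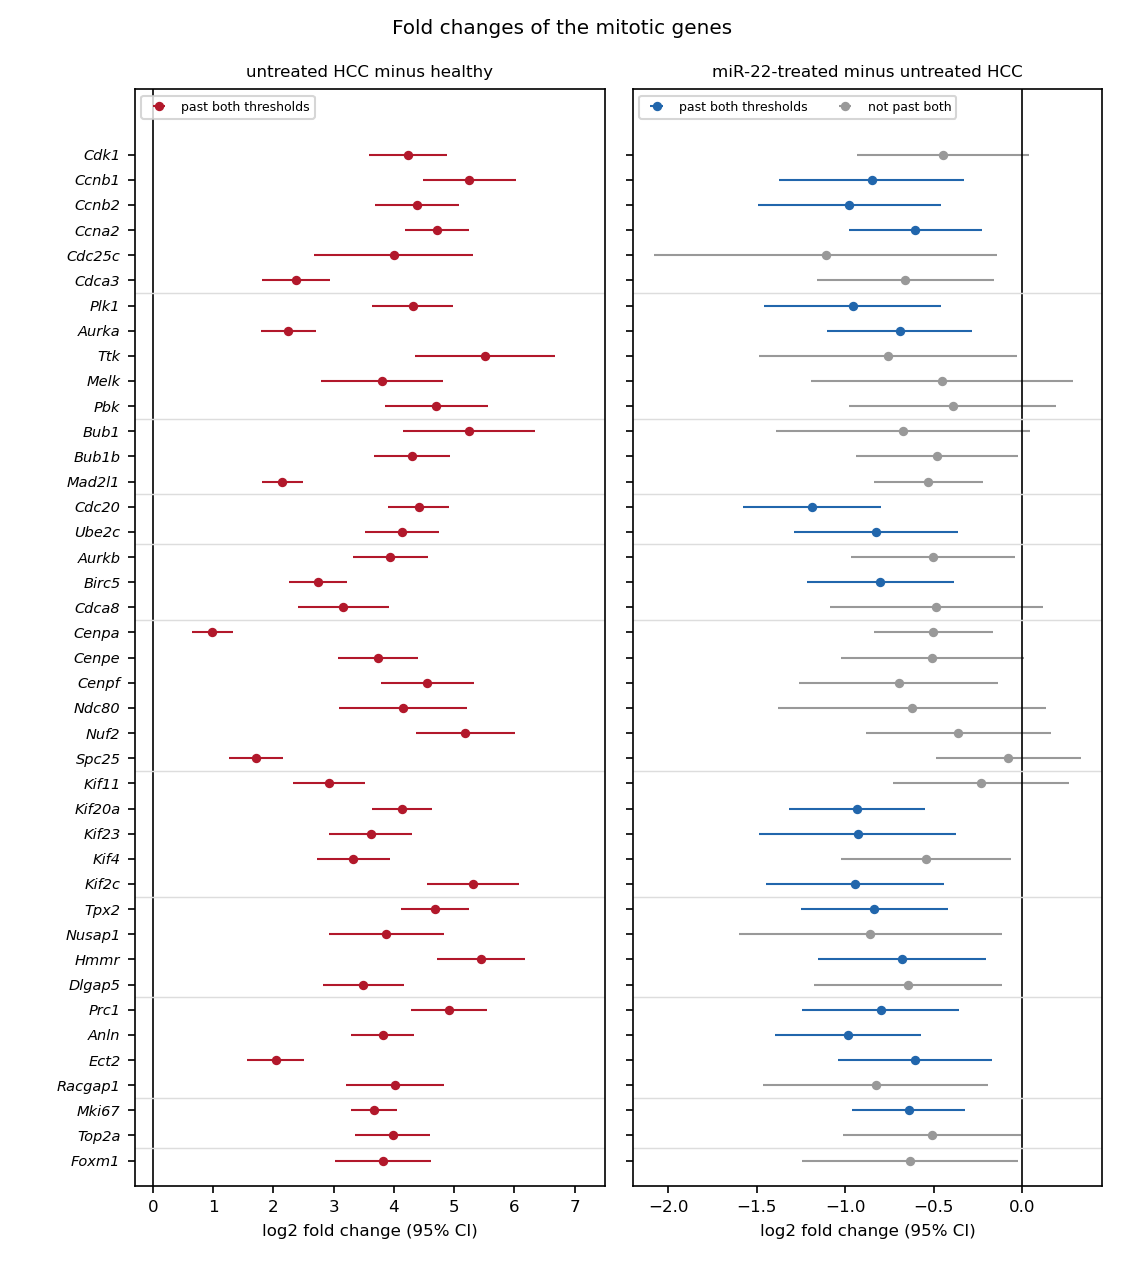
Log2 fold change of each mitotic gene with its 95% confidence interval, for untreated HCC minus healthy (left) and miR-22-treated minus untreated HCC (right), on different horizontal scales, with genes grouped by role. All 41 points on the left are past both thresholds, from 0.99 for Cenpa to 5.52 for Ttk, while on the right all 41 are below 0 and 17 are past both.

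By role, the summed counts of the anaphase-promoting complex partners were 51.4% lower with miR-22, those of cytokinesis 42.4%, spindle assembly 41.2%, kinesin motors 38.3%, CDK1 with its cyclins 38.1%, mitotic kinases 37.4%, the passenger complex 35.7%, Mki67 with Top2a 33.5%, the checkpoint 31.96% and centromere and kinetochore 27.1%. The genes called lower were 2 of 2, 3 of 4, 2 of 4, 3 of 5, 3 of 6, 2 of 5, 1 of 3, 1 of 2, 0 of 3 and 0 of 6 in the same order, beside 5.47% of all genes. In roles this small, 0 or 1 calls cannot be set apart from that share. Differences between roles were not tested.

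Per kilobase of exon, which allows genes to be compared, Cdc20 had the highest level of the 41 in untreated HCC at 200.5 ± 33.5 normalized counts, followed by Mki67 at 133 ± 17.4, Top2a at 108 ± 13.5 and Ccnb2 at 107 ± 19.9. Neighbors in the order Mki67, Top2a, Ccnb2 differed by less than the sum of their SDs, and Cdc20 stood above Mki67 by more than that. The lowest were Cdc25c at 7.42 ± 1.47, Ndc80 at 11.2 ± 0.985 and Kif4 at 17.4 ± 3.89. In healthy livers Ect2 led at 15.8 ± 3.32, ahead of Cenpa at 14.0 ± 1.26 and Spc25 at 11.6 ± 1.65, and these neighbors again differed by less than the sum of their SDs. Exon lengths are the union over all transcripts of GENCODE release M39 on GRCm39 and overstate the length of genes with rare long isoforms.

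The mitotic genes were set beside S phase genes, which copy DNA earlier in the cycle. Over 44 S phase genes the sum ranged from 8641 to 9896 normalized counts for healthy, from 11362 to 13816 for untreated and from 11908 to 14228 for treated livers, so the HCC groups overlapped. In HCC 27 of the 44 rose and 2 fell, beside 22.7% and 18.1% of all genes, with a median log2 fold change of 0.84. With miR-22 edgeR called none lower and 2 higher, with a median of -0.04, beside 5.47% and 8.32% of all genes, and 10 had an unadjusted p under 0.05 in either direction. Rrm2, of ribonucleotide reductase, rose 6.52-fold in HCC (adjusted p = 1.1e-07) and read 407, 572 and 429 in untreated HCC and 412, 439 and 554 with miR-22, with full overlap. Ccne1, encoding cyclin E1, was 6.77-fold higher in HCC (adjusted p = 2.5e-07). Mcm10, a replication initiation factor, fell by 2.498 on the log2 scale in HCC (adjusted p = 1.96e-07) and rose by 2.12 with miR-22 (adjusted p = 2.0e-05). Tk1, thymidine kinase, fell by 2.19 in HCC (adjusted p = 6.4e-08) and rose by 1.17 with miR-22 (adjusted p = 0.00017). Both comparisons use the same untreated livers. For every 100 S phase counts there were 11.0 to 12.5 mitotic counts in each healthy liver, 83.4 to 101.7 in each untreated and 47.9 to 59.6 in each treated one, and these ranges did not overlap. The S phase sum was already high in healthy livers and only 1.35-fold higher in untreated HCC, so these ratios mainly follow the mitotic sum.

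**Figure D4:**
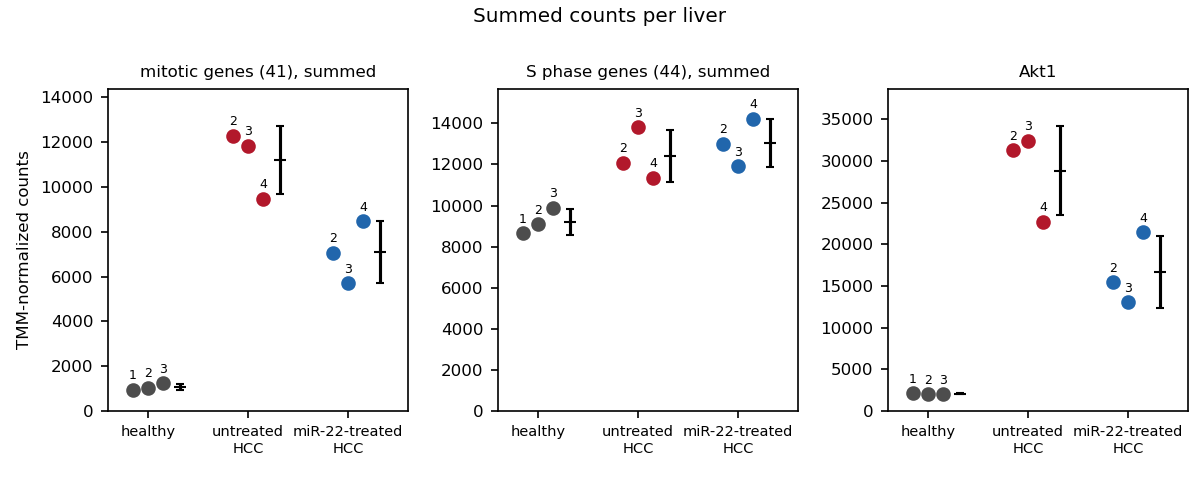
TMM-normalized counts per liver (points, with replicate number; bar, mean and SD, n = 3) in the 3 groups, for the sum of the 41 mitotic genes, the sum of 44 S phase genes and Akt1, each on its own vertical scale from 0. The mitotic sums separate the groups, with 9476 to 12294 in untreated HCC and 5706 to 8478 with miR-22, whereas the S phase sums of the HCC groups overlap.

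Akt1, whose reads can come from the injected AKT as well as from the mouse gene, moved with the mitotic sum. It read 2105, 2002 and 2009 in healthy livers, 31315, 32454 and 22700 in untreated HCC and 15472, 13027 and 21424 with miR-22. Untreated liver 4 and treated liver 4 are again the nearest to each other. Akt1 fell by 0.79 on the log2 scale with miR-22 (adjusted p = 0.0079). Per 100 Akt1 counts there were 45.0 to 61.3 mitotic counts for healthy, 36.5 to 41.7 for untreated and 39.6 to 45.7 for treated livers, so the treated range overlapped with both others. Nras, the other injected oncogene, read 521, 575 and 568 in healthy livers, 1339, 1499 and 1228 in untreated HCC and 1073, 1034 and 1069 with miR-22. It was 2.44-fold higher in HCC (adjusted p = 2.5e-07), and its 1.28-fold lower level with miR-22 stayed under the fold threshold (adjusted p = 0.013). The part of either oncogene in the lower mitotic counts was not tested.

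Another 124 mitotic genes stood on lists written by hand, and 123 of them were tested. In HCC 74 rose and 3 fell, with a median log2 fold change of 1.499, and with miR-22 15 fell and 3 rose, with a median of -0.20. The all-gene shares beside these counts and those of the separate lists are 22.7% higher and 18.1% lower in HCC and 5.47% lower and 8.32% higher with miR-22. In lists with 1 or 2 calls with miR-22 the counts are too small to set apart from these shares. The 15 core genes of the anaphase-promoting complex went both ways in HCC, 8 with a positive and 7 with a negative log2 fold change (median 0.03, range -0.43 to 1.43), and 6 had an adjusted p under 0.05. The 1 gene also past the fold threshold, Ube2s, which extends ubiquitin chains, rose in HCC (2.69-fold, adjusted p = 9.5e-06) and fell with miR-22 (1.51-fold, adjusted p = 0.015). The genes named from these lists are those with the lowest p in each direction. Of the spindle, centrosome and motor genes 18 of 23 were called higher in HCC, with a median of 3.20, including Ckap2 (22.2-fold, adjusted p = 9.2e-08) and Nek2 (11.7-fold, adjusted p = 1.6e-07). Nek2 and Kifc1, a kinesin that focuses spindle poles, were among the 5 of these genes that fell with miR-22 (1.69-fold and 1.75-fold, adjusted p = 0.014 for both). In cytokinesis 9 of 11 rose in HCC, with a median of 3.16, including Iqgap3 (53.5-fold, adjusted p = 6.4e-08) and Shcbp1 (13.5-fold, adjusted p = 6.5e-07), Kif13b fell (1.51-fold, adjusted p = 0.00039), and 3 fell with miR-22, including Knstrn, an adaptor of the anaphase spindle (1.92-fold, adjusted p = 0.0039), and Iqgap3 (2.01-fold, adjusted p = 0.0065).

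Among 28 other kinetochore and centromere genes 17 rose in HCC, including Knl1, the platform for checkpoint proteins (23.9-fold, adjusted p = 1.3e-07), and Incenp, the scaffold of the passenger complex (6.72-fold, adjusted p = 2.5e-07). With miR-22 Incenp fell (1.62-fold, adjusted p = 0.012) and Cenpl rose (1.81-fold, adjusted p = 0.015). Of 10 condensin and chromosome structure genes 8 rose in HCC, including Ncaph (10.5-fold, adjusted p = 1.6e-07) and Smc4 (2.47-fold, adjusted p = 1.6e-06), both condensin subunits, and Kif22 and Cdca2 fell with miR-22 (1.74-fold and 1.82-fold, adjusted p = 0.046 and 0.047). Of 12 genes of separase, securin and cohesion 6 rose, including Esco2, which acetylates cohesin (27.8-fold, adjusted p = 3.1e-07), and Espl1, the separase (17.1-fold, adjusted p = 2.1e-06), and Espl1 fell with miR-22 (1.81-fold, adjusted p = 0.048). In the other checkpoint list 4 of 8 rose, including Kntc1 (11.9-fold, adjusted p = 1.7e-06) and Zwilch (4.88-fold, adjusted p = 4.2e-06), and edgeR called none with miR-22, where 1 had an unadjusted p under 0.05.

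Wee1 and Cdc14b restrain or reverse CDK1. Both comparisons share the untreated livers, so opposite signs in them are not independent, here and for the regulators described next. Wee1, the kinase that blocks CDK1, read 742, 840 and 847 in healthy livers, 259, 307 and 224 in untreated HCC and 296, 403 and 534 with miR-22. Treated liver 2 lay inside the untreated range and the other treated livers above it. Wee1 was 3.08-fold lower in HCC (adjusted p = 9.6e-06) and 1.57-fold higher with miR-22 (adjusted p = 0.023). Cdc14b, a phosphatase that opposes CDK1, was 1.54-fold lower in HCC (adjusted p = 0.0002) and 1.52-fold higher with miR-22 (adjusted p = 0.0015). In the same list of 16 tested genes 11 rose in HCC, including Cdc25a, a phosphatase that activates the kinases (log2 fold change 1.72, adjusted p = 2.75e-06), and Gtse1 (13.2-fold, adjusted p = 4.2e-06), and Gtse1 and Ccnf, encoding cyclin F, fell with miR-22 (2.00-fold and 1.53-fold, adjusted p = 0.031 and 0.046).

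**Figure D5:**
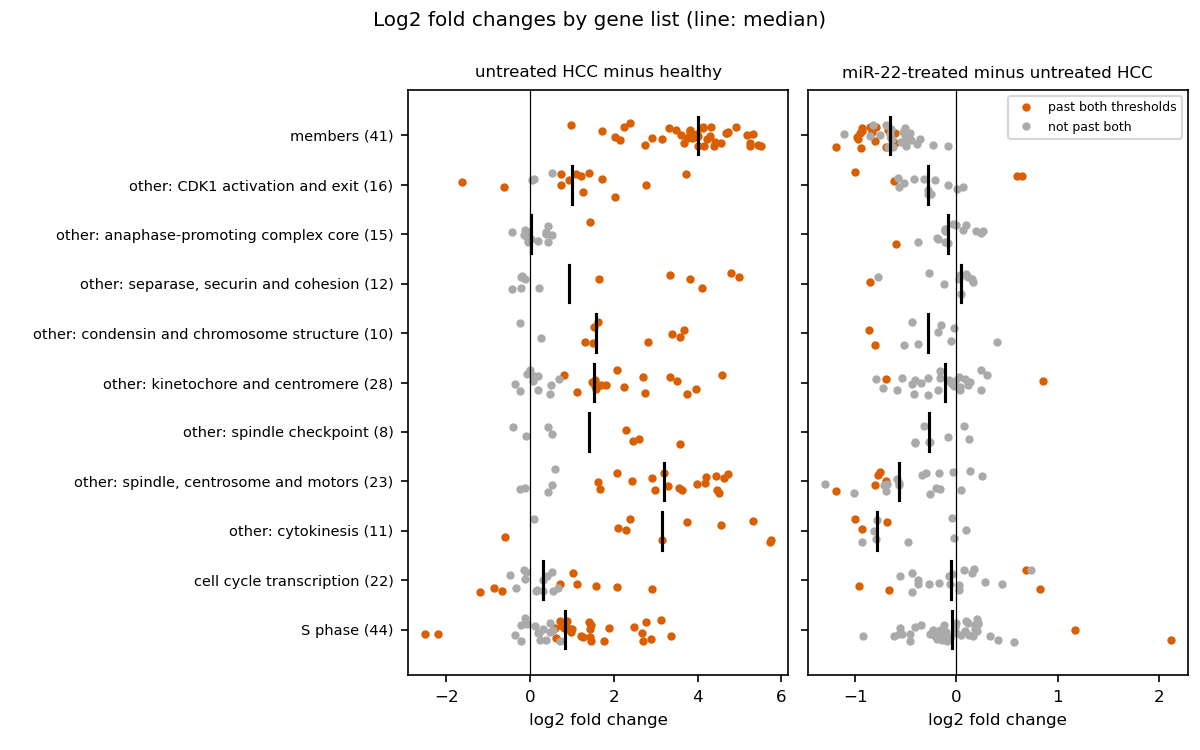
Log2 fold change of each tested gene (points; orange, past both thresholds; gray, not) by list, with the number tested in brackets and the median as a line, for untreated HCC minus healthy (left) and miR-22-treated minus untreated HCC (right); vertical jitter has no meaning. Of the lists drawn, the 41 members have the highest median on the left, 4.00, and lie wholly below 0 on the right, while the S phase and anaphase-promoting core lists center near 0 there.

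Of 22 regulators of cell cycle transcription, 6 rose and 3 fell in HCC, where 22.7% of all genes were called higher and 18.1% lower, and 2 rose and 2 fell with miR-22, where the shares were 8.32% and 5.47%. The regulators below are single genes, and the counts of the list are near the background. Rbl2, the p130 pocket protein of the repressive DREAM complex, read 1044, 1140 and 1097 in healthy livers, 421, 447 and 566 in untreated HCC and 912, 956 and 676 with miR-22. The untreated livers were below all others. Rbl2 was 2.28-fold lower in HCC (adjusted p = 1.3e-05) and 1.77-fold higher with miR-22 (adjusted p = 0.0016). Tfdp2, a dimer partner of E2F proteins, was 1.81-fold lower and 1.61-fold higher in these comparisons (adjusted p = 0.00012 and 0.0031). The activator E2f2 read 48.8, 48.9 and 62.9 in healthy livers, 248, 224 and 213 in untreated HCC and 119, 96.5 and 135 with miR-22. Its groups did not overlap, with 4.24-fold in HCC (adjusted p = 1.3e-06) and 1.95-fold lower with miR-22 (adjusted p = 0.0020). Nfya, a subunit of the CCAAT-binding NF-Y, was 1.59-fold lower with miR-22 (adjusted p = 0.0019).

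Mybl2, encoding the B-MYB of activating MuvB, read 9.76, 14.7 and 7.46 in healthy livers, 76.4, 92.1 and 73.2 in untreated HCC and 52.2, 60.6 and 64.6 with miR-22. The groups did not overlap. Mybl2 was 7.57-fold higher in HCC (adjusted p = 3.6e-06), and its log2 fold change of -0.44 with miR-22 had an adjusted p of 0.20. E2f1 rose in HCC by 1.57 on the log2 scale (adjusted p = 6.6e-05) and had an adjusted p of 0.37 with miR-22. The repressors E2f7 and E2f8 were not called in either comparison, with log2 fold changes of 0.68 and 0.32 in HCC and 0.74 and 0.45 with miR-22.

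Cell markers moved with these groups, and their part in the mitotic counts was not tested. Counts of called markers stand beside 22.7% of all genes called higher and 18.1% lower in HCC, and 8.32% and 5.47% with miR-22. Summed duct markers, of which 5 of 6 rose in HCC and 4 fell with miR-22, ranged from 572 to 816 for healthy, from 64801 to 121460 for untreated and from 30414 to 52662 for treated livers, mostly from Spp1. Hepatocyte markers made up 11.1% to 15.1% of all counts in the 9 livers. In untreated HCC 8 of 10 fell and 1 rose, with miR-22 5 of 10 rose (median log2 fold change 0.63), and in untreated livers the summed level was 1767660 to 2082820, against 3149450 to 3365030 for healthy and 2328330 to 2675690 for treated livers. Of 9 stellate and fibroblast markers 5 rose and 2 fell in HCC, and 2 rose and 2 fell with miR-22, while their sum was 7190 to 8533 in healthy, 19752 to 22897 in untreated and 15318 to 18146 in treated livers. Neutrophil markers, of which all 4 tested were called higher in HCC, summed to 35.4 to 87.8, 342 to 453 and 330.3 to 495, and overlapped between the HCC groups. The erythroid list, whose dividing precursors could carry mitotic transcripts, had its defining Gata1 at 0 counts in all 9 livers and Hemgn and Rhag at 1 or fewer, and its sum came mainly from the transferrin receptor Tfrc. That sum ranged from 900.1 to 1943 in healthy, from 1874 to 2733 in untreated and from 1588 to 1745 in treated livers, without overlap between the HCC groups. Of its 4 tested genes 2 rose and 1 fell in HCC, and edgeR called none with miR-22, where 1 had an unadjusted p under 0.05. Neutrophil progenitor markers, another list of dividing cells, summed to 1.07 to 2.44 in healthy, 17.3 to 30.4 in untreated and 14.8 to 33.3 in treated livers, a low level that was 12.5-fold higher in untreated HCC than in healthy. The 1 tested gene, Prtn3, rose in HCC (log2 fold change 3.99) and had an unadjusted p over 0.05 with miR-22. T and NK markers summed to 139 to 250 and B and plasma markers to 132 to 308, with overlap between all groups. Macrophage sums did not overlap, at 9237 to 11609 in healthy, 11703 to 13047 in untreated and 13388 to 14069 in treated livers. Endothelial sums of 4331 to 5433 in untreated HCC lay below the 6667 to 8290 of healthy and the 5654 to 7208 of treated livers. Of 8 endothelial markers 1 rose and 3 fell in HCC (median log2 fold change -0.0047) and 1 rose with miR-22, and of 10 macrophage markers 3 rose in HCC and edgeR called none with miR-22, where 2 had an unadjusted p under 0.05. These counts are near the all-gene shares.

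The 9 libraries held 16664700 to 23908400 counts. Scaling matters for the size of the change with miR-22. TMM factors were 0.865 to 0.872 in healthy, 1.12 to 1.22 in untreated and 0.942 to 1.03 in treated livers. With library totals as the sole scaling, the median log2 fold change of all genes moved to 0.43 in HCC and -0.23 with miR-22, and 33 of the 41 were then called lower with miR-22 with a median of -0.89. Over all genes the calls in HCC were 3575 higher and 2842 lower, or 5986 and 1492 with library totals alone, and with miR-22 1308 and 859, or 835 and 2164. With miR-22 against untreated HCC, the median of the mitotic genes lay below that of all genes under both scalings. A change of scaling shifts all genes nearly alike, so this order could hardly differ between the scalings and is no separate support.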

How the data were processed

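RNA of 9 whole mouse livers was sequenced by the authors as paired reads from libraries that do not keep strand, so overlapping and antisense genes cannot be told apart. Per the labels and the study's methods, reads were checked with FastQC 0.11.7, quantified against GRCm39 transcripts with Salmon (version not given in the sources used here) and summed per gene, and the authors tested with DESeq2 1.18. The deposited whole-number counts of 55401 genes were used here. A second deposited table, the same counts divided by size factors, was not used.

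Genes with low counts were removed with edgeR's filterByExpr, which left 15717. All 9 libraries entered a single quasi-likelihood fit (edgeR 4.0.16, limma 3.58.1, R 4.3.3) with TMM scaling and no covariate, and p-values were adjusted by Benjamini-Hochberg over all genes tested. A gene was called at an adjusted p under 0.05 and a fold over 1.5, the thresholds of the study. Normalized counts were divided by effective library size and multiplied by its mean of 19401057. Intervals are 95%. The code was also run on simulated counts with known changes, and the results of that run are not given here. Replicates of a group differed well beyond sampling noise (chi-square per degree of freedom 6.35 to 30.2), so that none was a duplicate. Alternatives included DESeq2 1.42.0, other scalings and filters, a replicate block and leaving out each liver. Figures were drawn with matplotlib 3.10.9 in Python 3.11.15.

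The 41 genes and the other lists were chosen with earlier results of these data known. All 41 are described by role. Values in every liver are given for a panel of 24 well-known mitotic genes, for each gene called with miR-22 and for those with the largest and smallest fold changes. Of each other list the counts and up to 2 genes with the lowest p per direction are given, with E2f1, E2f7, E2f8 and Mybl2 in addition. Akt1, Nras, the marker genes named singly and the genes of other lists given by liver were chosen after their values were seen.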

Additional observations from a re-analysis of the deposited data

How the results depend on the processing

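All 41 mitotic genes were called higher in HCC than in healthy livers in each alternative that tested them. With at least 10 counts required in every library, 15 of the 41 could be tested, and all 15 were called higher in HCC, with a median log2 fold change of 2.96, 9 lower with miR-22, and 14 higher in treated than healthy livers with a median of 2.71. For single genes, 634 of the alternative values with miR-22 kept direction and side of the threshold, 60 lost the call, 57 gained it and 2 reversed, both for Spc25.

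The members called lower with miR-22, 17 as reported, were 22 with DESeq2, 33 with library totals alone, 26 with no filter, 12 with the replicate block and 1 (Cdc20) with a test against the fold of 1.5 itself, and 7 to 25 without 1 liver. The replicate block kept 11 of the 17. Deviations of same-numbered HCC livers from their group means had correlations of -0.12, -0.12 and -0.23. Centering within so few livers ties these correlations to each other, so they cannot exclude a pairing. The labels do not say what the numbers mark. Spc25 ranged from -0.37 to 0.068 without 1 liver.

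With library totals alone, all-gene calls were 5986 higher and 1492 lower in HCC (member median 4.41), 835 and 2164 with miR-22, and 593 lower in treated than healthy livers. The all-gene median with miR-22 was -0.23 with library totals and -0.037 with upper-quartile scaling, against 0.00. Other mitotic genes called lower in HCC numbered 1 with upper-quartile scaling, library totals, the minimum of 10 counts or the test against the fold, and 9 with no fold threshold. With miR-22 1 was higher and 36 lower under library totals, 9 lower with the minimum of 10 counts, 7 lower with the replicate block, 0 either way against the fold, and 0 to 3 higher and 3 to 22 lower without 1 liver. With the minimum of 10 counts 34 were higher in HCC and 33 in treated than healthy livers, with 1756 of all genes higher in the latter. Between treated and healthy livers 0 were lower against the fold, 4 with no fold threshold and 1 to 2 without 1 liver, and the member median was then 3.01 to 3.62.

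The test against the fold called 1854 genes lower in HCC, 413 higher and 55 lower with miR-22, and 1716 higher and 294 lower in treated than healthy livers. With no fold threshold 2140 were higher and 1637 lower with miR-22, and 2373 lower in treated than healthy livers. Without 1 liver 415 to 1149 were lower with miR-22. The causes of these shifts were not tested. For 10 genes every healthy liver had under 10 counts, which limits the precision of their folds against healthy.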
